A study of Mus musculus with 6 samples.

Results

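Granins and the enzymes that process prohormones were examined in rhombomere 1, the foremost segment of the hindbrain, of mouse embryos with a conditional deletion of the transcription factor Gata2 and of their controls. The set held 10 genes, chosen by symbol: the granins Scg2, Chgb, Chga and Scg3, the granin-like Vgf, the chaperone Scg5, and the enzymes Pcsk1, Pcsk2, Cpe and Pam. The annotation named a probe for 9 of these 10, of 19054 genes in all, and they had 15 probes. Scg2 and Chgb were known to be lower in this same comparison when the set was drawn up, so the differences of the set are given as a description, without a test. Tissue called mutant here came from E12.5 ICR (CD-1) embryos with En1-cre and Gata2 flox/flox. The controls were embryos of the same crosses with En1-cre and Gata2 flox/+; their titles say wildtype, but they share the recombinase and 1 floxed allele. En1-cre is active in the midbrain and rhombomere 1, and that Gata2 was deleted is known only from the labels. Each group had 3 pools of 6 dissected pieces, with 1 array (Illumina Mouse WG-6 BeadChip) for each pool, on which the brightness of a probe stands for RNA level.

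Neurons and endocrine cells store peptides in dense-core vesicles. Granins are acidic secretory proteins that aggregate with peptide precursors in the trans-Golgi and help to form these vesicles. Inside the vesicle, prohormone convertases cut the precursors at pairs of basic residues, a carboxypeptidase trims the basic residues left at the ends, and an amidating enzyme finishes many of the peptides. Serotonergic, noradrenergic and peptidergic neurons of the hindbrain all hold vesicles of this kind.

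Promoter windows were taken from RefSeq (build GRCm38.p6), running from 250 bases before to 50 bases after the annotated transcript start, and they are shown because the 2 granins that were lower in mutants share a motif there. Windows matched 8 of the 10 genes. The cyclic AMP response element (CRE), searched as its palindrome TGACGTCA on both strands, was found in the windows of Scg2, Chgb and Pcsk1, and in 2.03% of the 27025 genes with a window. In the windows below, capitals mark the palindrome.
Scg2 (chr1:79439977-79440276, minus strand): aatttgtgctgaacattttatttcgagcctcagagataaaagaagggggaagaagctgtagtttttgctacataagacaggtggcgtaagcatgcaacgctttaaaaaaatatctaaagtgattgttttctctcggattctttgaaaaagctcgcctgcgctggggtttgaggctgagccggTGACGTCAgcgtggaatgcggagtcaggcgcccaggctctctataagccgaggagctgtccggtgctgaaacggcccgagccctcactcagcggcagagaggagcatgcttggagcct
Chgb (chr2:132781392-132781691, plus strand): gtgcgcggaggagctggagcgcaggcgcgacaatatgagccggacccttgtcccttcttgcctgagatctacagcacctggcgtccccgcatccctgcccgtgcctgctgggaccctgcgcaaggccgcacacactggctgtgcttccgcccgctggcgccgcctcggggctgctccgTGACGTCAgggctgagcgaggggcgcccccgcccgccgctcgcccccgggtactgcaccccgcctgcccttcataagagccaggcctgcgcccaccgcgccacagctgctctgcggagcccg
The palindrome began 68 bases before the start in Scg2, 72 bases before it in Chgb and 78 bases before it in Pcsk1. A stretch of 40 bases shows it in Pcsk1, and capitals in the Chga and Scg3 stretches mark the shorter core TGACG alone.
Pcsk1 (chr13:75089763-75089802, plus strand): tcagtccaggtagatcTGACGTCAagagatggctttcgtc
Chga (chr12:102554879-102554918, plus strand): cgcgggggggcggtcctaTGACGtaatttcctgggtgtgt
Scg3 (chr9:75684065-75684104, minus strand): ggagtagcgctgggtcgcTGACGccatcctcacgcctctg
This core, which each palindrome holds on both strands, was found in 7 of the 8 genes with a window, all but Pam, and in 23.0% of genes with a window. The GATA motif, searched on both strands as AGATAA or AGATAG and also as TGATAA or TGATAG, was found in the windows of Scg2 and Scg5 and in 33.0% of genes with a window. A match describes letters only, not binding. The CRE is shown because the 2 lower granins share it, so its presence in them is no test. Its part in their levels was not tested.

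**Figure D1:**
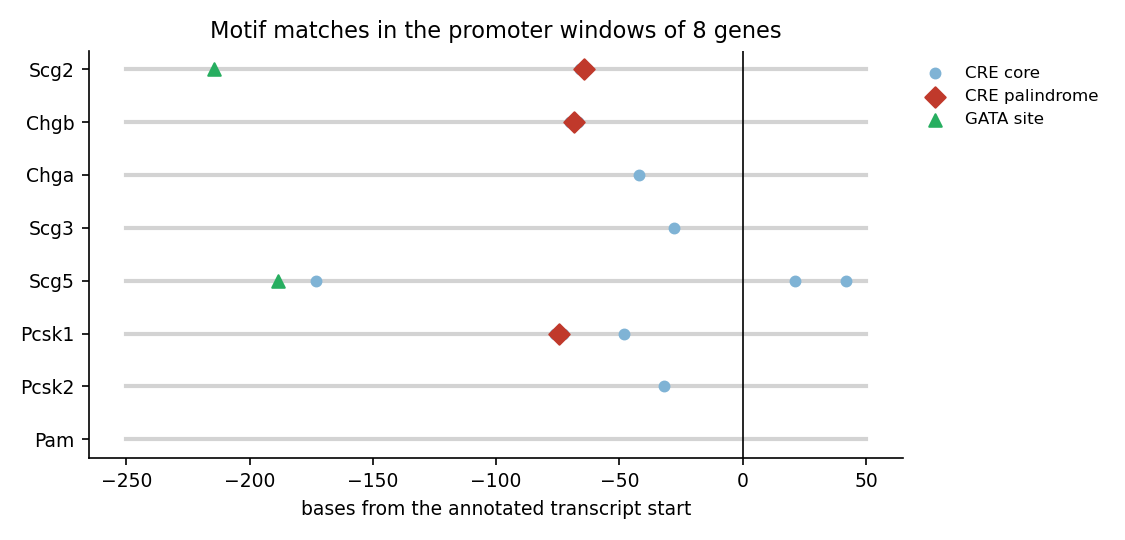
Places of motif matches in the promoter windows of the 8 genes with one; the horizontal axis gives bases from the annotated transcript start, each grey line is 1 gene's window, and symbols mark the CRE palindrome, cores outside or inside it, and GATA letters. The palindromes of Scg2, Chgb and Pcsk1 lie 68, 72 and 78 bases before the start.

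The arrays were of similar quality. Between 19388 and 20407 of 45276 probes per array had a detection p-value under 0.05, called above background or detected here, and the raw median intensity was 69.8 to 76.7. Of the rhombomere 1 and isthmus markers En1, En2, Gbx2, Fgf8 and Pax8 were above background on all 6 arrays, and Pax2 and Pax5 did not pass the detection filter. En1 averaged 11.34 ± 0.24 in mutants and 11.59 ± 0.17 in controls (normalized log2 intensity, SD, n = 3 each). Pax8 and En2 were also lower in mutants, with differences of -0.51 ± 0.20 and -0.18 ± 0.11 (SE). Fgf8 and Gbx2 were higher, with differences of 0.41 ± 0.16 and 0.67 ± 0.36 (SE). The midbrain marker Otx2 was also above background on all 6 arrays, at 8.34 ± 0.35 in mutants and 8.33 ± 0.44 in controls, and the markers of more posterior hindbrain were near background. Of these, Hoxa2 was detected on 2 of 3 mutant and 1 of 3 control arrays, with a difference of 0.34 ± 0.30, and Hoxb2 on 1 of 3 mutant and 3 of 3 control arrays, with a difference of -0.20 ± 0.15 (SE). The 1 probe of Gata2 averaged 10.89 ± 0.17 in mutants and 10.53 ± 0.16 in controls on the same scale. It was higher in mutants without overlap, as were 7.69% of all genes measured, with a difference of 0.36 ± 0.12 (SE). This difference did not pass over all probes (limma adjusted p = 0.4175). The sources used here do not place the probe relative to the deleted part, so it checks no label. The number of arrays limits the precision. Levels below are normalized log2 intensities after background correction, comparable between arrays for 1 probe but not between probes, and differences are mutant minus control on that log2 scale with limma standard errors.

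Of the 15 probes, 10 passed the detection filter (above background on at least 3 of 6 arrays) and stood for 8 genes. Among these 10, 2 probes, those of Scg2 and Chgb, were past an adjusted p of 0.05 over all 19936 probes kept (limma, Benjamini-Hochberg). Both were lower in mutants; over all kept probes 25 were called lower, 0.125%, and 0.145% in either direction. The same 2 probes were the only kept ones of the set whose mutant values lay wholly below the control values, an arrangement seen in 6.60% of kept probes. Since the set was chosen with this contrast known, nothing is read from these counts. In whole tissue, fewer cells of a type and less RNA per cell cannot be told apart.

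**Figure D2:**
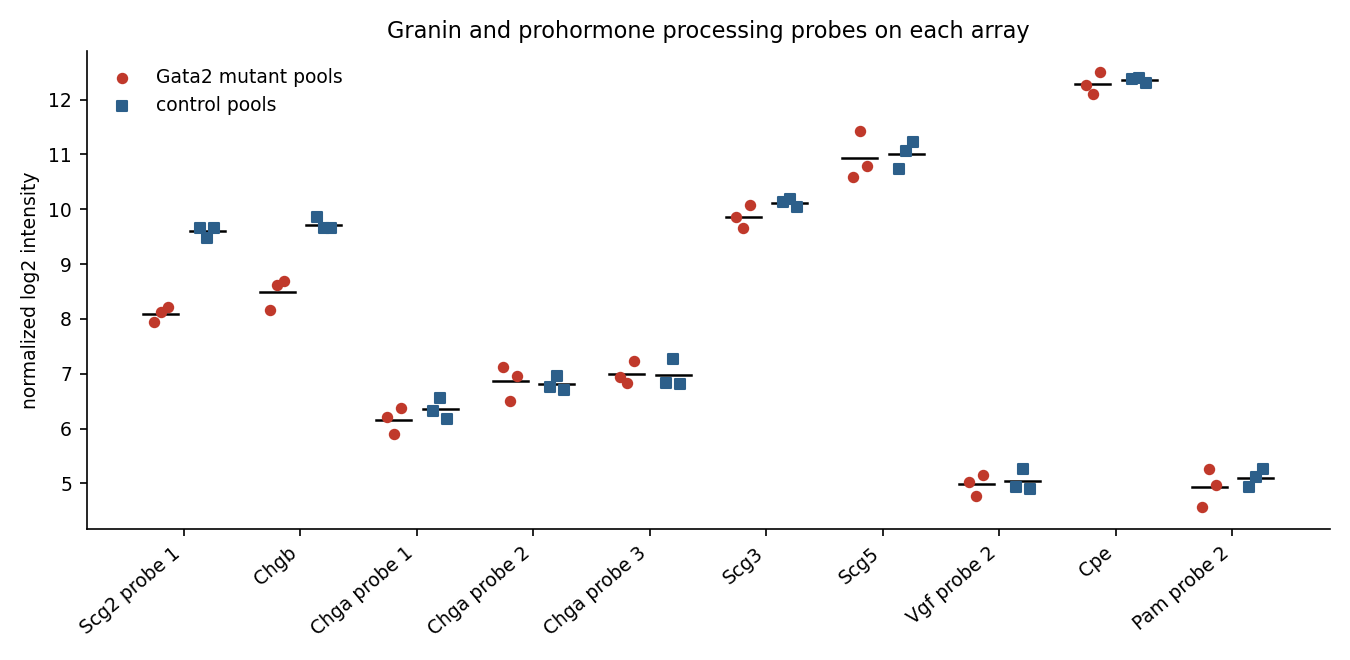
Normalized log2 intensity (vertical axis) of the 10 probes that passed the detection filter, with 1 point per pool, mutants left (red circles) and controls right (blue squares) of each label, and a bar at each mean. The mutant points lie below the control points without overlap for Scg2 and Chgb, and the groups overlap for the other 8 probes.

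Scg2 encodes secretogranin II, the precursor of the peptide secretoneurin. Its detected probe read 7.94, 8.13 and 8.21 in the mutant pools, against 9.65, 9.47 and 9.66 in the control pools. All 3 mutant pools were low and lay close together, and the gap from the highest mutant to the lowest control value was 1.26. The means were 8.09 ± 0.14 in mutants and 9.60 ± 0.11 in controls (SD, n = 3 each), a difference of -1.50 ± 0.12 (SE), or 2.84-fold lower. On this scale the mutant level was 35.3% of the control level. Before any normalization the probe's intensity was 302.9, 349.2 and 343.1 in mutants, against 840.7, 775.8 and 766.4 in controls, so the separation is visible in the deposited intensities. A second probe annotated to the same transcript was above background on 0 of 6 arrays and bears on neither direction.

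Chgb encodes chromogranin B, a major matrix protein of dense-core vesicles. Its single probe read 8.17, 8.62 and 8.70 in the mutant pools, against 9.85, 9.66 and 9.65 in the control pools. The mutant pools were again all low, with array 1R lowest as for Scg2, and the gap between the groups was 0.95. The means were 8.49 ± 0.29 in mutants and 9.72 ± 0.11 in controls (SD, n = 3 each), a difference of -1.23 ± 0.14 (SE), or 2.34-fold lower, which left 42.8% of the control level. Raw intensities were 346.5, 472.2 and 463.6 in mutants and 960.5, 879.3 and 759.6 in controls.

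The other granins overlapped between the groups. Chga encodes chromogranin A, the founding granin, and had 3 detected probes. The brightest read 6.93, 6.83 and 7.23 in mutants and 6.84, 7.27 and 6.82 in controls, and a further probe read 7.12, 6.51 and 6.96 in mutants and 6.77, 6.96 and 6.71 in controls. The dimmest read 6.21, 5.89 and 6.37 in mutants and 6.33, 6.55 and 6.17 in controls. Mutant and control pools were interleaved for each of the 3 probes. Their differences were 0.02 ± 0.16, 0.05 ± 0.16 and -0.19 ± 0.16 (SE), and the 95% intervals reached down to -0.32, -0.30 and -0.54.

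Scg3 encodes secretogranin III, which binds chromogranin A and carries it to the cholesterol-rich vesicle membrane. Its probe read 9.87, 9.65 and 10.08 in mutants, against 10.13, 10.18 and 10.05 in controls. The lowest 2 values were mutant, but the third mutant pool lay above 1 control pool. The difference was -0.26 ± 0.12 (SE; 95% interval -0.51 to -0.00), with means of 9.87 ± 0.21 in mutants and 10.12 ± 0.07 in controls (SD, n = 3 each), and it did not pass over all probes.

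Vgf, a neurotrophin-induced precursor of several secreted peptides, was near background. Its better probe, detected on 2 of 3 mutant and 2 of 3 control arrays, read 5.02, 4.77 and 5.16 in mutants, against 4.94, 5.27 and 4.90 in controls. The groups overlapped, with a difference of -0.06 ± 0.17 (SE). Its second probe was above background on 0 of 6 arrays, so little can be read for this gene at these levels.

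Scg5 encodes a chaperone that binds the convertase made from Pcsk2 and is needed for its activity. It read 10.59, 11.42 and 10.79 in mutants, against 10.74, 11.06 and 11.23 in controls. Both the lowest and the highest pool were mutant, and the mutant SD of 0.43 was the widest of the set's kept probes. The difference was -0.07 ± 0.18 (SE; 95% interval -0.47 to 0.32).

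The convertases of the set, Pcsk1 and Pcsk2, were not measured. Both probes of Pcsk1 were above background on 0 of 6 arrays, and Pcsk2 had no probe named in the annotation used here. Cpe, the carboxypeptidase that removes the basic residues after cutting and also serves as a sorting receptor, gave a bright signal. Its probe read 12.26, 12.11 and 12.495 in mutants, against 12.38, 12.40 and 12.31 in controls. The mutant pools spanned the control pools, and the difference was -0.08 ± 0.11 (SE; 95% interval -0.30 to 0.15), the narrowest interval in the set. Pam, which amidates the ends of peptides, was near background: its better probe, detected on 2 of 3 arrays in each group, read 4.57, 5.26 and 4.97 in mutants, against 4.93, 5.12 and 5.26 in controls. That is a difference of -0.17 ± 0.19 (SE) between overlapping groups. The other Pam probe was detected on 1 of 3 arrays in each group.

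**Figure D3:**
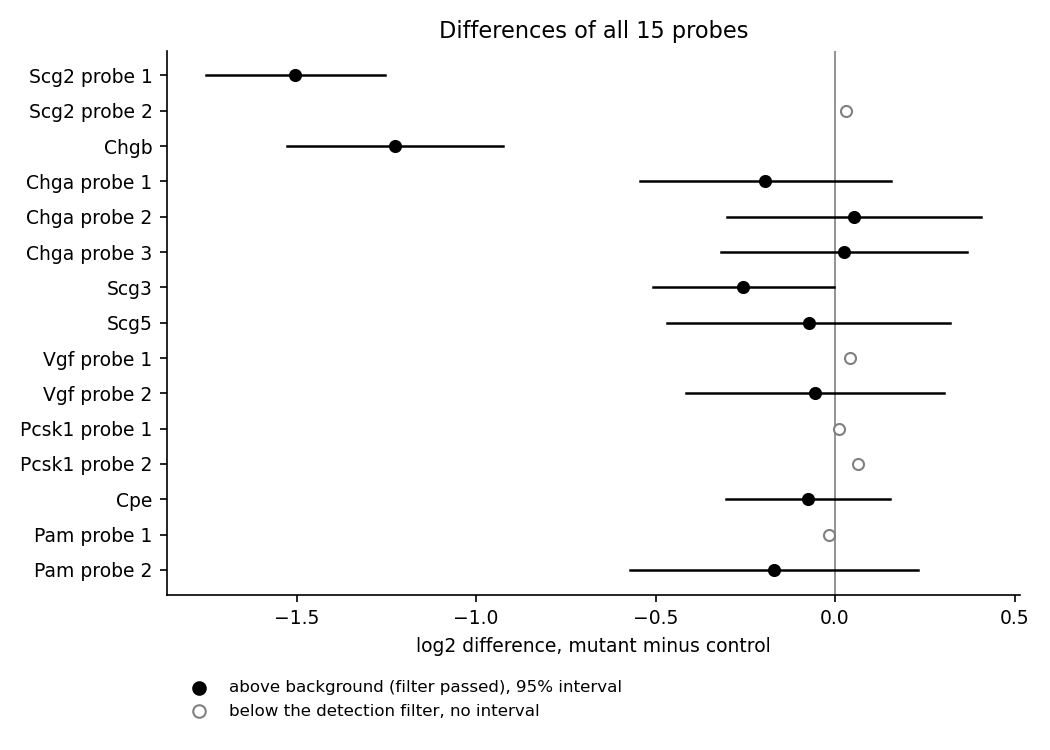
Log2 difference, mutant minus control (horizontal axis), of all 15 probes; filled points passed the detection filter and carry limma's 95% interval, open points did not and have none. The intervals of Scg2 (-1.75 to -1.25) and Chgb (-1.53 to -0.92) lie to the left of those of the other 8 detected probes, whose lowest end is -0.57.

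The levels of Scg2 and Chgb across the 6 arrays were set beside those of all 10524 genes measured, by the root mean square distance between log2 profiles centred on their own means. Chgb was the third closest gene to Scg2, at a distance of 0.18, and Scg2 the closest to Chgb. Closer to Scg2 were Mxd1 (0.11), a transcriptional repressor, and Adamts9 (0.15), a secreted metalloprotease; 0 of 3 mutant arrays detected either probe above background, so their mutant values are background. After Scg2, the genes closest to Chgb were Slc6a17 (0.23), a vesicular transporter of neutral amino acids, and Adamts9 (0.24). Slc6a17 was dim, averaging 5.25 in mutants and 6.04 in controls, and did not pass over all genes measured (limma adjusted p = 0.106). The 6 arrays form 2 groups, so a like difference between the groups is enough to bring profiles close.

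Other genes of dense-core vesicles, in 3 lists by role, were tested in the same fit over 10524 genes, of which 18 were called, 0.171%. Of 22 other granin-like genes, convertases, carboxypeptidases and peptide-modifying enzymes, 15 were measured and 0 passed (limma; 0 also at an unadjusted p under 0.05, which 8.83% of all genes measured had). Their median difference was 0.07, against 0.01 over all genes measured. The smallest p-values belonged to Furin, the convertase of the constitutive pathway, at 0.18 ± 0.14, to Ece2, an endothelin-converting enzyme, at 0.20 ± 0.15, and to Cpxm1, a carboxypeptidase-like protein, at 0.17 ± 0.14 (SE, adjusted p = 0.754, 0.760 and 0.776, limma). Each gene was counted by its brightest probe. For Gnas, in this list, that probe was at -0.03 ± 0.11 (SE), while its 6 kept probes ran from -0.87 to 0.24. None of these passed over all probes, and the probes at both ends were dim, each detected on 2 of 3 mutant arrays.

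Of 20 genes of the vesicle membrane, of vesicle formation and of release, 13 were measured and 0 passed (limma; 1 at an unadjusted p under 0.05), with a median difference of -0.04. The smallest p-values were those of Clcn3, a chloride-proton exchanger of intracellular vesicles, at 0.20 ± 0.09, Rab27a, a GTPase of secretory granules, at 0.24 ± 0.15, and Ica1, a protein of granule formation, at -0.20 ± 0.13 (SE; adjusted p = 0.550, 0.683 and 0.712, limma). Clcn3 was the 1 with an unadjusted p under 0.05. The lowest difference in this list was -0.24, with each gene counted by its brightest probe. For Rab3a, in this list, that probe was at -0.07 ± 0.14, while a dimmer kept probe was at -0.55 ± 0.16 (SE). The dimmer probe did not pass over all probes (limma adjusted p = 0.332).

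Of 21 precursors of secreted peptides, the cargo that these enzymes process, 9 were measured and 1 rose, Cartpt, while 0 fell (limma; 1 at an unadjusted p under 0.05); over all genes 0.0380% rose. Cartpt, the precursor of the CART peptides, averaged 7.66 ± 0.22 in mutants and 6.70 ± 0.22 in controls (SD, n = 3 each), a rise of 0.96 ± 0.15 (SE; adjusted p = 0.0205, limma). A second, dimmer Cartpt probe gave 0.63 ± 0.20 (SE) between overlapping groups and did not pass over all probes (adjusted p = 0.407, limma). The gene's rise did not pass without mutant array 2R or 3R or control array 5R or 7R. The other 8 were negative, the lowest at -0.29, and the list's median was -0.22. The genes of the 3 lists were chosen with earlier results of these data known.

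**Figure D4:**
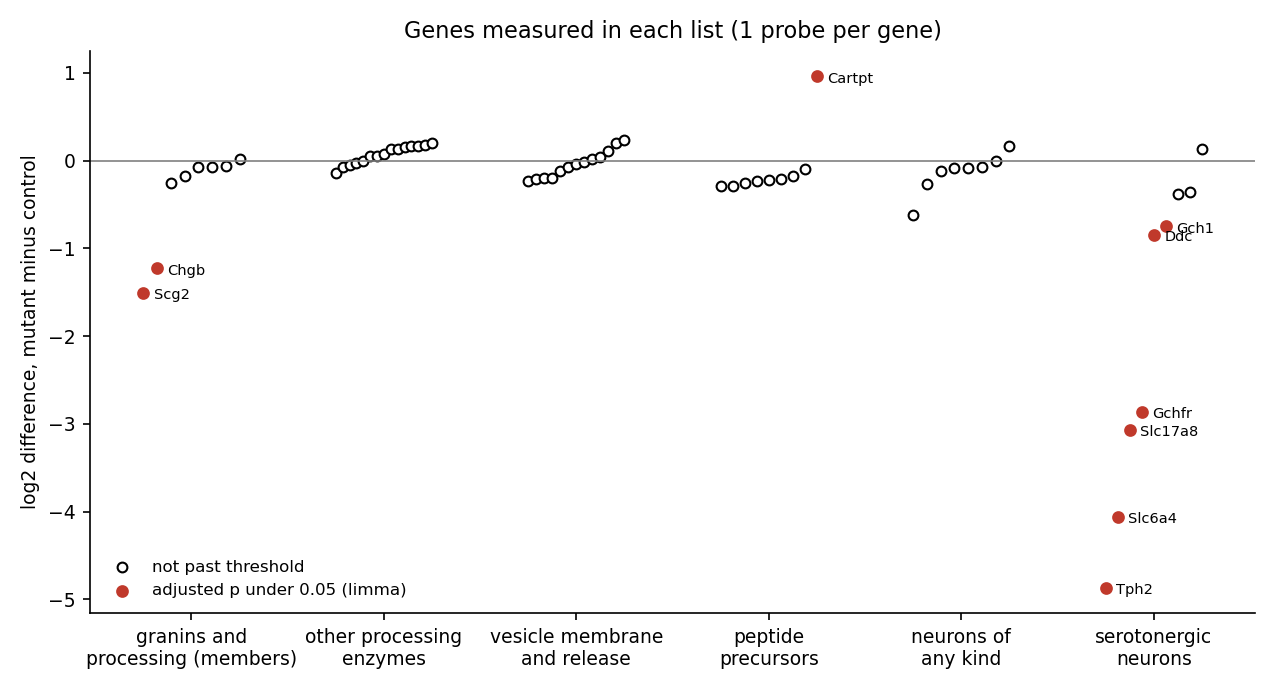
Log2 difference, mutant minus control (vertical axis), of each measured gene in 6 lists, with 1 point per gene, that of its brightest probe. Filled red points passed an adjusted p of 0.05 and are named, and the calls of the first list are a description. Apart from Scg2 and Chgb, the vesicle lists lie between -0.29 and 0.24 except for Cartpt at 0.96; serotonergic points include probes at background in mutants.

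Most serotonergic markers were lower in mutants as well. Of 11 such markers 9 were measured and 6 fell (limma, adjusted p under 0.05), where 0.133% of all genes fell; Fev had no probe named while Htr1a did not pass the detection filter. The summed level of the 9, on the linear scale, was 831 to 942 in mutant pools and 3335 to 4280 in control pools, without overlap. Tph2, the serotonin-synthesising hydroxylase, averaged 5.39 ± 0.76 in mutants (detected on 2 of 3 arrays) and 10.25 ± 0.21 in controls (SD, n = 3 each). Slc6a4, the serotonin transporter, was detected on 1 of 3 mutant arrays. It averaged 4.85 ± 0.32 in mutants and 8.91 ± 0.26 in controls. Gchfr, a regulator of cofactor synthesis for serotonin, was detected on 0 of 3 mutant arrays and passed the detection filter through the controls alone. The other markers that fell were Slc17a8, a vesicular glutamate transporter, at -3.07 ± 0.24, Ddc, which makes serotonin from its precursor, at -0.84 ± 0.14, and Gch1, which starts synthesis of the cofactor, at -0.75 ± 0.12 (SE; limma adjusted p = 1.78e-05, 0.0205 and 0.0265). The 3 measured markers that did not pass were near background. Slc18a2, the vesicular monoamine transporter, differed by -0.38 ± 0.18, Maob, a monoamine oxidase, by -0.36 ± 0.16, and Lmx1b, a transcription factor of these neurons, by 0.13 ± 0.20 (SE; limma adjusted p = 0.567, 0.561 and 0.888). Leaving out 1 control array, 3 of the markers passed without 5R, 4 without 7R and 5 without 6R. Leaving out 1 mutant array, 4 passed without 2R or 3R and 6 without 1R. The other processing settings gave 4 to 6, with 4 when no intensity trend was used. The part of these cells in the lower Scg2 and Chgb signals was not tested.

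Summed levels of the other marker lists overlapped between the groups. For neurons of any kind, 8 of 10 markers were measured and 0 passed (limma, with 1 at an unadjusted p under 0.05), with summed levels of 19697 to 21724 in mutants and 21131 to 23464 in controls. Of these 8, 7 were lower in mutants, with a median difference of -0.08, against 0.01 over all genes measured. The 1 was Syt1, at -0.62 ± 0.12 (SE, limma adjusted p = 0.0614). A dimmer Syt1 probe, at -0.90 ± 0.12 (SE), passed over all probes (limma adjusted p = 0.00785). For noradrenergic neurons, 3 of 5 were measured and 0 passed (0 at an unadjusted p under 0.05), with summed levels of 271 to 391 in mutants and 313 to 478 in controls. All 3 differences were negative, at -0.40 ± 0.20 for Slc6a2, -0.01 ± 0.21 for Phox2a and -0.004 ± 0.175 for Th (SE). For cranial sensory ganglia, 4 of 6 were measured and 0 passed (1 at an unadjusted p under 0.05), with sums of 2486 to 2966 in mutants and 2115 to 2561 in controls. The 1 was Sncg, higher in mutants at 0.35 ± 0.15 (SE, limma adjusted p = 0.538). Isl1 was higher by 0.20 ± 0.10 (SE), and 1 of the 4 markers was lower in mutants. Erythroid markers (5 of 6 measured, 0 passed, 2 at an unadjusted p under 0.05) summed to 52898 to 61065 in mutants and 49792 to 56224 in controls, a sum made mostly of the bright Hba-a1 and Hbb-y. All 5 were higher in mutants, 3 of them without overlap, which 7.69% of all genes measured were. These 3 were the embryonic globins Hbb-bh1 and Hba-x, at 0.53 ± 0.14 and 0.41 ± 0.13, and Alas2, an enzyme of haem synthesis, at 0.27 ± 0.13 (SE; limma adjusted p = 0.292, 0.375 and 0.567). Their part in any result was not tested. Vessel and meningeal markers (4 of 8 measured, 0 passed, 0 at an unadjusted p under 0.05) summed to 299 to 313 in mutants and 280 to 351 in controls. Rhombomere 1 and isthmus markers (5 of 7 measured, 0 passed, 2 at an unadjusted p under 0.05) summed to 7225 to 8932 in mutants and 8254 to 9698 in controls, a sum made mostly of the bright En1 and En2. The 2 were Pax8, lower in mutants, and Fgf8, higher in mutants (limma adjusted p = 0.510 for each). Midbrain and posterior hindbrain markers (3 of 5 measured, 0 passed, 0 at an unadjusted p under 0.05) summed to 338 to 522 in mutants and 306 to 447 in controls.

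The differences of Scg2 and Chgb were computed again under other processing. Scg2 ranged from -1.57 to -1.31 and Chgb from -1.33 to -1.06 over 14 alternatives that give such a value, and both probes were called in each of 16 alternatives that apply to probe calls. No other probe of the set was called in any of these. The end nearest 0 came without background correction for Scg2 and without mutant array 1R for Chgb.

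**Figure D5:**
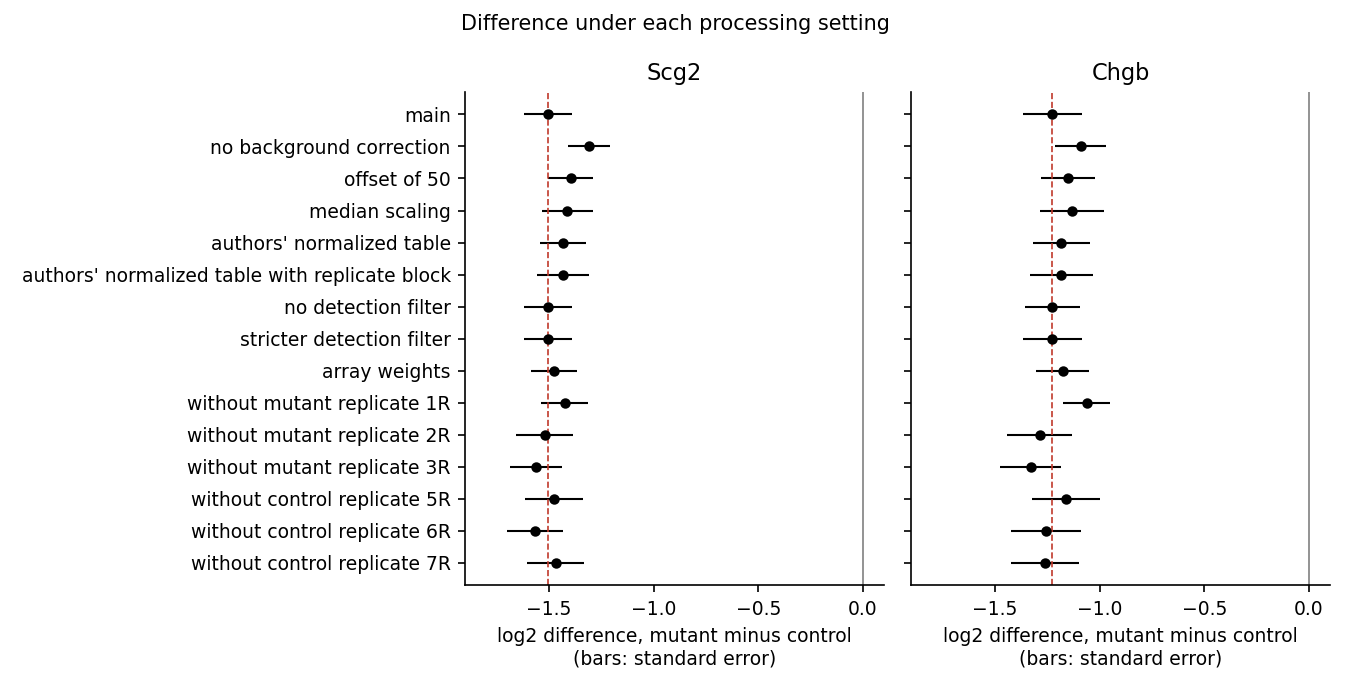
Log2 difference, mutant minus control (horizontal axis), of Scg2 and Chgb under each processing setting (rows), with bars for the limma standard error and a dashed line at the reported value; the grey line marks 0. All values lie between -1.57 and -1.06.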

How the data were processed

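For each of the 6 arrays the authors deposited linear probe intensity values, not normalized per the file headers, and beside them a detection p-value. The submitters' processing notes name GenomeStudio 1.0 with no role. Columns name the genotype and an array (1R, 2R and 3R for mutants, 5R, 6R and 7R for controls) but no titled replicate, so they were used as replicates of their group only. The normalized intensity table that the authors also deposited served as an alternative.

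Intensities were background-corrected, quantile-normalized and put on the log2 scale with neqc in limma 3.58.1 (R 4.3.3; offset 16). This correction widens the differences of dim probes. A probe was kept if its detection p-value was under 0.05 for 3 or more arrays, which held for 19936 of 45276. The platform annotation gave 1 gene symbol for 34881 probes, several for 18 and none for 10377. All kept probes were fitted with limma (lmFit, eBayes with an intensity trend), and p-values were adjusted by the Benjamini-Hochberg method over probes, or over 10524 genes with the probe of highest mean for each. The fit was tested on simulated data. Pools are called biological replicates by the series' design text. The members and lists were chosen with earlier results of these data known.

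Named were every member probe; in each list of related genes up to 4 past the threshold, otherwise the 3 with the smallest p; the 3 profiles closest to Scg2 and to Chgb; Tph2, Slc6a4, En1, Otx2, Hoxa2 and Gata2; and markers past the threshold. Gnas and Rab3a, and Hoxb2 with the other markers named with no pass, were chosen after their values were seen. The alternatives were the authors' table with and without a replicate block, median scaling, an offset of 50, no background correction, no detection filter, a filter that asks for a detection p-value under 0.01 throughout a group, no intensity trend, array weights, the mean of a gene's probes, a threshold of 0.1, and leaving out each array.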

Additional observations from a re-analysis of the deposited data

How the results depend on the processing

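Scg2 and Chgb kept their direction and their call in each alternative for probes. Scg2 moved by more than its replicate spread in 1, no background correction, to -1.31; leaving out 1 array gave -1.57 to -1.43 for Scg2 and -1.33 to -1.06 for Chgb. The 8 other detected probes of the set gave 110 values under the alternatives, all within their replicate spread of the reported value; 14 had the other sign, and none was called. The count of called probes, 29, was 17 with the replicate block on the authors' table, 19 without an intensity trend, and 14 to 103 leaving out 1 array: 103 without mutant array 1R, 14 without control array 5R, 17 without 6R and 19 without 7R. The count of called genes, 18, ranged from 11 (control array 5R left out) to 52 (mutant array 1R left out); it was 27 at a threshold of 0.1. Cartpt, the 1 related gene called, was not called without an intensity trend or with the mean of its probes (0 called), and leaving out 1 array gave 0 to 1 calls. The cause of these changes was not tested. In the replicate block, pools with the same titled number did not deviate together (correlations across probes of -0.04, -0.09 and -0.30), so the numbers were not taken as pairs; Scg2 was -1.43 and Chgb -1.18 there. Signal over background limits what can be read for Vgf and Pam, whose better probes were detected on 2 of 3 arrays in each group, and for Pcsk1, detected on none.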

Other observations

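Further probes are given for a few genes of the lists above, chosen after their values were seen. The probes of Gnas and of Rab3a disagreed, while those of Syt1 were all lower in mutants. Gnas, whose locus also makes the granin-like protein NESP55, had 10 probes named, of which 6 passed the detection filter. Their differences ran from -0.87 to 0.24, and 2 of them were lower in mutants without overlap, as were 6.60% of all kept probes, at -0.87 ± 0.19 and -0.52 ± 0.16 (SE), while the brightest was -0.03 ± 0.11. None passed over all probes (limma adjusted p = 0.174 and 0.380 for the 2 lower probes). The probes at both ends of the range were dim, averaging 5.09 and 5.31 in mutants, and each was detected on 2 of 3 mutant arrays. The annotation lists different transcripts for the -0.52 probe and the brightest probe, and none for the -0.87 probe. Another kept probe listed with the transcript of the -0.52 probe was at -0.06 ± 0.16 (SE). That probe was near background, detected on 1 of 3 mutant and 2 of 3 control arrays, so it says little about this transcript. The -0.52 probe was detected on 3 of 3 arrays in each group. Where each probe binds was not looked up here. Rab3a, a GTPase of synaptic and secretory vesicles, had 1 probe at -0.55 ± 0.16 without overlap and a brighter probe at -0.07 ± 0.14 (SE). Neither passed over all probes (limma adjusted p = 0.332 and 0.910). Syt1, the calcium sensor of vesicle fusion, was lower without overlap on each of its 3 probes, at -0.90 ± 0.12, -0.64 ± 0.15 and -0.62 ± 0.12 (SE), and 1 of these passed over all probes (limma adjusted p = 0.00785).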
